A study of Mus musculus with 4 samples.

Results

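The epidermal transcription factors described here are 10 genes: Trp63, Tfap2a and Klf5, which act in the lineage and in proliferating cells, and Klf4, Grhl1, Grhl3, Ovol1, Prdm1, Cebpa and Cebpb, which act in differentiation. They were found by gene symbol in the platform annotation, which gave 20 of the 45101 probe sets and 10 of the 18193 named genes. RNA came from primary keratinocytes of newborn C57BL/6 mice and was read on 4 expression arrays. The groups were KO-labelled cells 4 h after UVB at 75 mJ/cm2, KO-labelled cells without irradiation, wild-type (WT) cells 4 h after the same UVB dose and WT cells without irradiation, with 1 array each. KO stands for the label p38a-KO, where p38a is p38alpha, a stress-activated kinase encoded by Mapk14, and these cultures also carry the code K14C, which the labels do not spell out. The removed part of the gene, what drove its removal, the number of animals behind a culture and a mock-treated culture at 4 h are not stated in the sources used here. Unirradiated cells are listed at 0 h, so UVB and 4 h of culture cannot be told apart in the UVB ratios below.

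With 1 array a group, a difference between 2 groups cannot be checked against replicates, and precision is limited by the number of arrays. The values are MAS5 signal, the array software's summary of a probe set, in units on a linear scale. A floor of 24.9 units, the median probe set's mean signal, was used for low values, and 11379 genes reached it on average over the 4 arrays, all 10 factors among them. Each gene was read by its brightest probe set, and all 4 arrays of each factor were above the floor. Array-wide signal was lower after UVB, with a median log2 ratio of -0.82 in KO-labelled and -0.70 in WT cells. These medians were 0.06 and 0.05 when the arrays were quantile normalized, and 0.28 and 0.32 when they were centred on their medians, so UVB ratios below are also placed among those of all genes. Mapk14 read 646.8 and 1449.1 units in irradiated and unirradiated KO-labelled cells, against 292.5 and 985.4 units in the WT cells, by its brightest probe set. Of 6 Mapk14 probe sets, 5 reached the floor on average. Those with means of 241.2 and 113.9 units were 1.39-fold and 1.96-fold higher in KO-labelled cells after UVB. Without irradiation they were 1.43-fold and 1.44-fold higher. Near the floor, the probe set with a mean of 32.1 units was 1.36-fold lower without irradiation, and that of 31.5 units 2.02-fold higher. The brighter probe sets thus go against the label, a probe set outside the deleted part checks nothing, and genotype directions rest on the labels. All 11 keratinocyte markers listed were above the floor on every array, with Krt14 between 11820.1 and 12588.3 units. None of 5 endothelial markers reached it on average.

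p63, the product of Trp63, is the master regulator of stratified epithelium and keeps basal keratinocytes in the lineage. Zinc-finger factors (KLF4, OVOL1, PRDM1, also called Blimp1), grainyhead-like factors (GRHL1, GRHL3) and C/EBP factors act as cells leave the basal layer. They take part in differentiation, in which the cornified envelope and the skin barrier form. AP-2alpha, from Tfap2a, and KLF5 act mostly in proliferating basal cells.

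Promoter sequence was available for 7 of the 10 genes, in 9 windows of RefSeq's GRCm38.p6 annotation, and was searched in the 250 bases before each start on both strands. TGACG, the core of the cAMP response element, was found in the windows of Klf4, Prdm1 and Cebpb, and in 17.8% of all 32851 windows. TGANTCA, a loose form of the AP-1 motif that allows any middle base, was found in that of Prdm1, as TGAATCA. It was found in 6.75% of all windows. These windows are printed because they belong to the factors with the highest UVB ratio in KO-labelled cells (Klf4), the highest in WT cells (Prdm1) and the most TGACG matches (Cebpb), a choice made after their values were seen. Capitals mark TGACG or its reverse complement and, in Prdm1, also TGANTCA, which does not overlap TGACG there.
Klf4 (GRCm38.p6 chr4:55532476-55532725, minus strand): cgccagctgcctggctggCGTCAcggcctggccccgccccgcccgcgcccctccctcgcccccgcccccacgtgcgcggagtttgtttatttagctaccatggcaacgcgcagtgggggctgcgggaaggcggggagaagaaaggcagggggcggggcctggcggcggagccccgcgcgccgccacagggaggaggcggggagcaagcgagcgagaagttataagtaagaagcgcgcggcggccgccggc
Prdm1 (GRCm38.p6 chr10:44458749-44458998, minus strand): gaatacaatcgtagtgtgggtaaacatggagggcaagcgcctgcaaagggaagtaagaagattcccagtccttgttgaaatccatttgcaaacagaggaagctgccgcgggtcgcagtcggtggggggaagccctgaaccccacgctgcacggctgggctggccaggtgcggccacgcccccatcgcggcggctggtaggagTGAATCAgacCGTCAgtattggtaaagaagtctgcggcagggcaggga
Cebpb (GRCm38.p6 chr2:167688665-167688914, plus strand): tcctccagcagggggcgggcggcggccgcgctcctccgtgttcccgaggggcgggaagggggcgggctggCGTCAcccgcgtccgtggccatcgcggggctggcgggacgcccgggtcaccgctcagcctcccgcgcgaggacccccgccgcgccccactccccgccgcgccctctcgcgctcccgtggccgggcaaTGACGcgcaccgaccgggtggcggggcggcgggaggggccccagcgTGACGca
Cebpb holds 3 TGACG matches, and the TGANTCA match of Prdm1 begins 48 bases before the start (position -48). The KLF motif GGGNGTG was found in the windows of Grhl3, Cebpb and Prdm1 and in 26.1% of all windows. The AP-2 motif GCCNNNGGC was found in Klf4 and Grhl1 and in 13.7%, and TATAAA in Cebpa and in 12.4%. None of the 9 windows held TTGCNNAA (C/EBP, 9.56% of all), AACNNGTT (grainyhead-like, 3.64%) or CCGTTA (OVOL, 2.18%). A match is a string of letters and does not show binding.

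On the deposited scale, where array-wide signal was lower too, UVB was followed by lower signal of most of these factors in both genotypes. Trp63 and Grhl1 were the lowest relative to unirradiated cells. In KO-labelled cells UVB gave 7 of 10 factors a signal at least 2-fold lower, where 39.3% of all genes were, and 0 were at least 2-fold higher, where 0.167% were. In WT cells 6 of 10 were at least 2-fold lower, where 34.8% of all genes were, and 0 were at least 2-fold higher, where 0.58% were. After quantile normalization 5 of 10 were at least 2-fold lower in KO-labelled and 2 of 10 in WT cells, where 8.17% and 9.5% of all genes were, and Prdm1 was at least 2-fold higher in WT cells, where 5.39% were. With median centring the lower factors numbered 3 in KO-labelled and 2 in WT cells, where 6.46% and 7.37% of all genes were lower. The higher ones then numbered 1 in KO-labelled cells (Klf4) and 3 in WT cells (Klf4, Prdm1 and Cebpa), where 8.87% and 11.3% of all genes were higher. The median log2 ratio of the 10 factors was -1.89 in KO-labelled and -1.16 in WT cells. In such bulk samples, fewer cells of a type and less RNA per cell cannot be told apart.

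**Figure D1:**
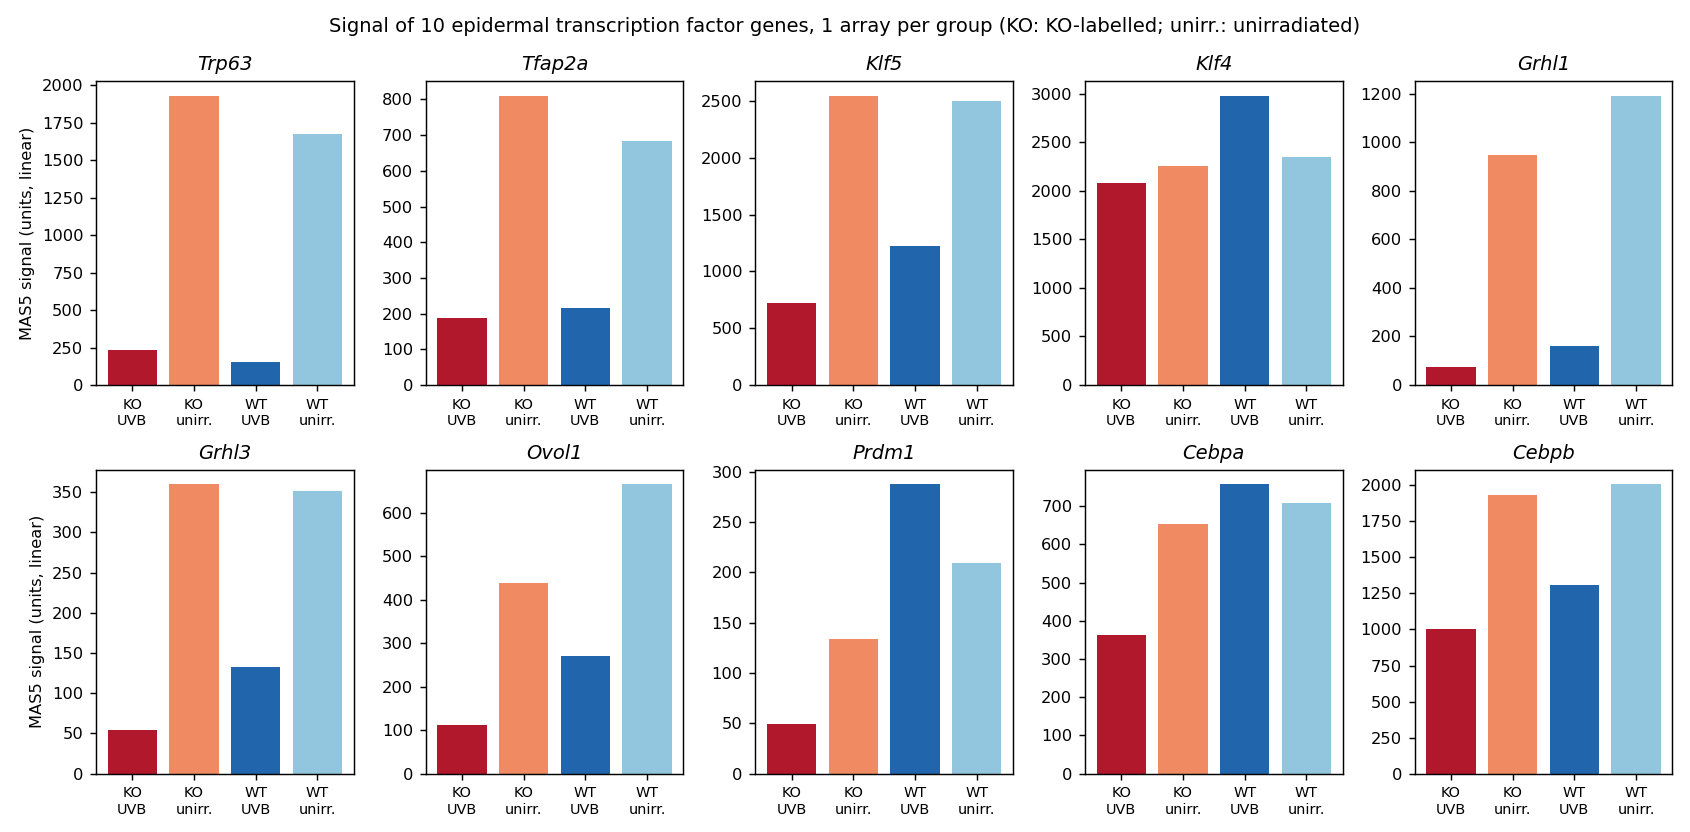
Bars give the MAS5 signal (units, linear scale from 0) of each factor's brightest probe set on each of the 4 arrays, 1 bar per array and no error bars, since each group has 1 array. Trp63 and Grhl1 have their 2 low bars in the irradiated cells of both genotypes, while Prdm1 is highest in irradiated WT cells at 287.5 units and lowest in irradiated KO-labelled cells at 49.88 units.

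Among the basal and lineage factors, Trp63 read 235.5 units in irradiated and 1931.1 units in unirradiated KO-labelled cells, against 150.5 and 1676.4 units in irradiated and unirradiated WT cells. Both irradiated arrays were far below both unirradiated ones. The gene was 8.2-fold lower after UVB in KO-labelled and 11.1-fold lower in WT cells, with 0.765% and 0.185% of all genes lower. Tfap2a read 186.6 and 811.1 units in irradiated and unirradiated KO-labelled cells, against 215.7 and 684 units in WT cells. It was 4.35-fold and 3.17-fold lower after UVB, with 5.92% and 13.01% of all genes lower, and here too the irradiated arrays lay below the unirradiated ones. Klf5 read 718.3 and 2550.1 units in irradiated and unirradiated KO-labelled cells, against 1227.8 and 2498.2 units in WT cells. Its levels without irradiation were close in the genotypes, and it was 3.55-fold lower after UVB in KO-labelled and 2.04-fold lower in WT cells, with 10.6% and 33.8% of all genes lower. The WT ratio of Klf5 is near the threshold and was 0.04 on the log2 scale, above 0, after median centring.

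The grainyhead-like factors and Ovol1 were also lower after UVB on every pair of arrays. Grhl1, which activates desmosomal cadherin genes, read 74.69 and 946.7 units in irradiated and unirradiated KO-labelled cells, against 160.2 and 1191.9 units in WT cells. It was 12.7-fold and 7.44-fold lower after UVB in KO-labelled and WT cells, with 0.132% and 1.05% of all genes lower. Grhl3, which is required for barrier formation, read 54.03 and 359.7 units in irradiated and unirradiated KO-labelled cells, against 132 and 350.8 units in WT cells. The unirradiated levels were nearly equal, while the ratio was 6.66-fold lower in KO-labelled and 2.66-fold lower in WT cells, with 1.54% and 19.9% of all genes lower. Ovol1, which restrains proliferation of committed cells, read 112.9 and 438.5 units in irradiated and unirradiated KO-labelled cells, against 271.6 and 665.4 units in WT cells. It was 3.88-fold and 2.45-fold lower after UVB, with 8.25% and 23.8% of all genes lower. By this brightest probe set the KO-labelled array was the lower one in each condition.

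As deposited, Klf4, Prdm1 and Cebpa were the factors with higher signal after UVB in WT cells and lower signal after UVB in KO-labelled cells. Klf4, which is needed to form the skin barrier, read 2083.4 and 2253.2 units in irradiated and unirradiated KO-labelled cells, against 2979.8 and 2351.2 units in WT cells. On the deposited scale and by brightest probe sets, it varied least of the 10, by 1.43-fold between its highest and lowest array. Its second probe set varied more, and was 2.11-fold higher after UVB in WT cells. By the brightest, Klf4 was 1.08-fold lower after UVB in KO-labelled cells, a ratio above that of 90.4% of all genes. In WT cells it was 1.27-fold higher, above 97.2%. In KO-labelled cells its direction depended on the scale, at -0.11 on the log2 scale as deposited, 0.38 after quantile normalization and 1.02 after centring. Prdm1, a repressor needed for the last steps of differentiation, read 49.88 and 134.1 units in irradiated and unirradiated KO-labelled cells, against 287.5 and 209.1 units in WT cells. It was 2.69-fold lower after UVB in KO-labelled cells, with 20.9% of all genes lower, and 1.38-fold higher in WT cells, with 98.1% lower. Its directions were the same under both other scales, at -0.31 and 1.34 after quantile normalization and -0.30 and 1.53 after centring, KO-labelled and WT in that order.

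The C/EBP factors differed from each other. Cebpa, which restrains the cell cycle in keratinocytes and is known to be induced by UVB in mouse keratinocytes, read 363.2 and 652.2 units in irradiated and unirradiated KO-labelled cells, against 757 and 706.8 units in WT cells. Only the irradiated KO-labelled array stood well below the others. It was 1.80-fold lower after UVB in KO-labelled cells, with 48.3% of all genes lower, and 1.07-fold higher in WT cells, with 93.7% lower. The KO-labelled ratio was 0.02 on the log2 scale after quantile normalization and 0.29 after centring, so its direction depended on the scale. Cebpb, which promotes early differentiation, read 1001.8 and 1932.1 units in irradiated and unirradiated KO-labelled cells, against 1308.3 and 2006.8 units in WT cells. It was 1.93-fold and 1.53-fold lower after UVB, close to the middle of all genes, with 42.2% and 55.1% of them lower. Its direction also depended on the scale, since after centring the log2 ratios were 0.18 in KO-labelled and 0.45 in WT cells.

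**Figure D2:**
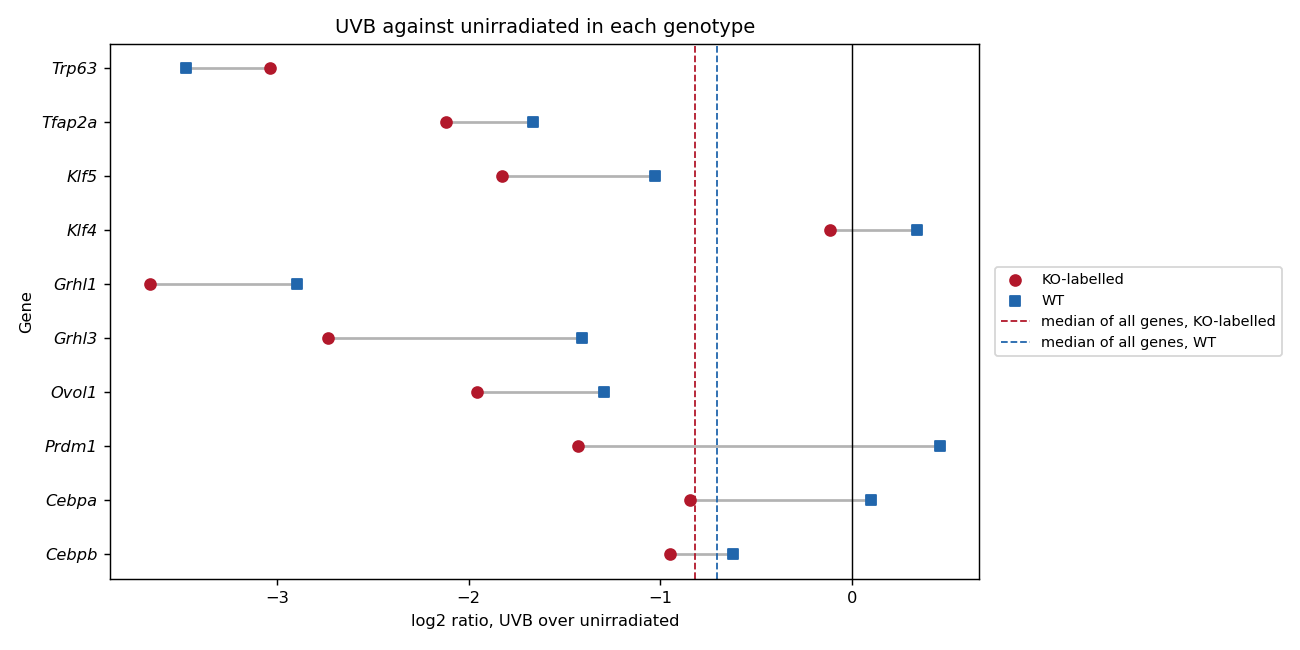
Points give each factor's log2 ratio of irradiated over unirradiated signal in KO-labelled (circles) and WT cells (squares), with dashed lines at the median of all 11379 genes in each genotype (-0.82 and -0.70). The circle lies left of the square for 9 of 10 factors, Trp63 being the other by its brightest probe set. The longest gap is that of Prdm1, -1.43 in KO-labelled and 0.46 in WT cells.

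Across both genotypes, 7 of 10 factors fell after UVB in limma's fit with a term for irradiation and one for genotype, where 69.4% of all genes fell. None of the 10 rose, where 0.703% of all genes did. The model has 1 residual degree of freedom. Its p-values therefore rest on how far the 2 genotypes' responses disagree, with the variance shared among genes of like level. Spread between cultures is mixed into that disagreement and cannot be estimated apart from it, since no group has replicates. The log2 change was -3.26 for Trp63, with an SE of 0.14 (limma adjusted p = 2.37e-06), and -3.28 for Grhl1, with an SE of 0.19 (limma adjusted p = 3.07e-06). Grhl3, Tfap2a, Ovol1, Klf5 and Cebpb also fell, with log2 changes of -2.07, -1.89, -1.63, -1.43 and -0.78. Once the arrays were quantile normalized, these same 7 fell, where 20.2% of all genes did, and Klf4 rose by 0.52 (limma adjusted p = 0.00171), where 20.3% rose. With centring 5 fell, where 14.9% of all genes did, and 3 rose, where 36.6% did. Those 3 were Klf4, Cebpa and Cebpb, with log2 changes of 1.21, 0.73 and 0.32, while Klf5 did not pass. As deposited, the UVB change was 0.11 for Klf4, -0.48 for Prdm1 and -0.37 for Cebpa, and none of these passed (limma adjusted p = 0.407, 0.249 and 0.115).

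After UVB, KO-labelled cells had lower signal than WT cells of 9 of the 10 factors, and of all 7 differentiation factors. Over all genes this log2 ratio had a median of 0.05, with quartiles of -0.13 and 0.28. Of the 10, 5 were at least 2-fold lower in irradiated KO-labelled cells, where 1.47% of all genes were, and 0 were at least 2-fold higher, where 1.41% were. The count was also 5 after quantile normalization and after centring, where 2.74% and 3.05% of all genes were at least 2-fold lower. With the floor at the 75th percentile, 128.9 units, it was 3, as the log2 ratios of Grhl3 and Grhl1 became -0.03 and -0.31 and that of Prdm1 became -1.16. Prdm1 was 5.76-fold lower in irradiated KO-labelled cells, and 0.0703% of all genes had a lower ratio. Grhl3 was 2.44-fold lower, Ovol1 2.41-fold, Grhl1 2.14-fold and Cebpa 2.08-fold lower. Klf5, Klf4, Cebpb and Tfap2a were 1.71-fold, 1.43-fold, 1.31-fold and 1.16-fold lower, and Trp63 was 1.56-fold higher. Prdm1, Grhl3, Grhl1 and Cebpa have 1 probe set each. By their other probe sets, Klf5 was 1.04-fold lower, Klf4 2.085-fold, Cebpb 1.84-fold, Tfap2a 1.37-fold and 1.30-fold, and Ovol1 at least 1.86-fold lower. The irradiated KO-labelled array was the lowest of the 4 for 9 of 10 factors as deposited, and for 37.4% of all genes. These ratios use the same irradiated arrays as the UVB ratios above.

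Without irradiation the genotypes were closer. Of the 10 factors, 0 reached a 2-fold lower signal in unirradiated KO-labelled cells, where 0.729% of all genes were, and 0 were at least 2-fold higher, where 1.63% were. Prdm1 was 1.56-fold lower and Ovol1 1.52-fold lower in KO-labelled cells, below all but 2.31% and 2.64% of genes. The second Ovol1 probe set was nearly equal, at 67.84 units in KO-labelled and 68.13 units in WT cells (1.004-fold lower). Grhl1 was 1.26-fold lower, and the other 7 factors lay within 1.19-fold in either direction. In the same limma fit, 1 of 10 factors fell with the KO label over both conditions, where 0.642% of all genes fell, and none rose, where 0.967% did. That factor was Ovol1, read by its brightest probe set, with a log2 change of -0.93 and an SE of 0.18 (limma adjusted p = 0.0392). That call was lost without the intensity trend in limma's variance (limma adjusted p = 0.301) and with genotype as the only term. Prdm1 had a log2 change of -1.58 with an SE of 0.36 and did not pass (limma adjusted p = 0.0705), but passed on quantile normalized arrays (limma adjusted p = 0.0306) and on centred ones (limma adjusted p = 0.0385). Grhl1 passed under both as well, which made 3 of 10 factors lower, where 1.38% and 1.24% of all genes were.

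**Figure D3:**
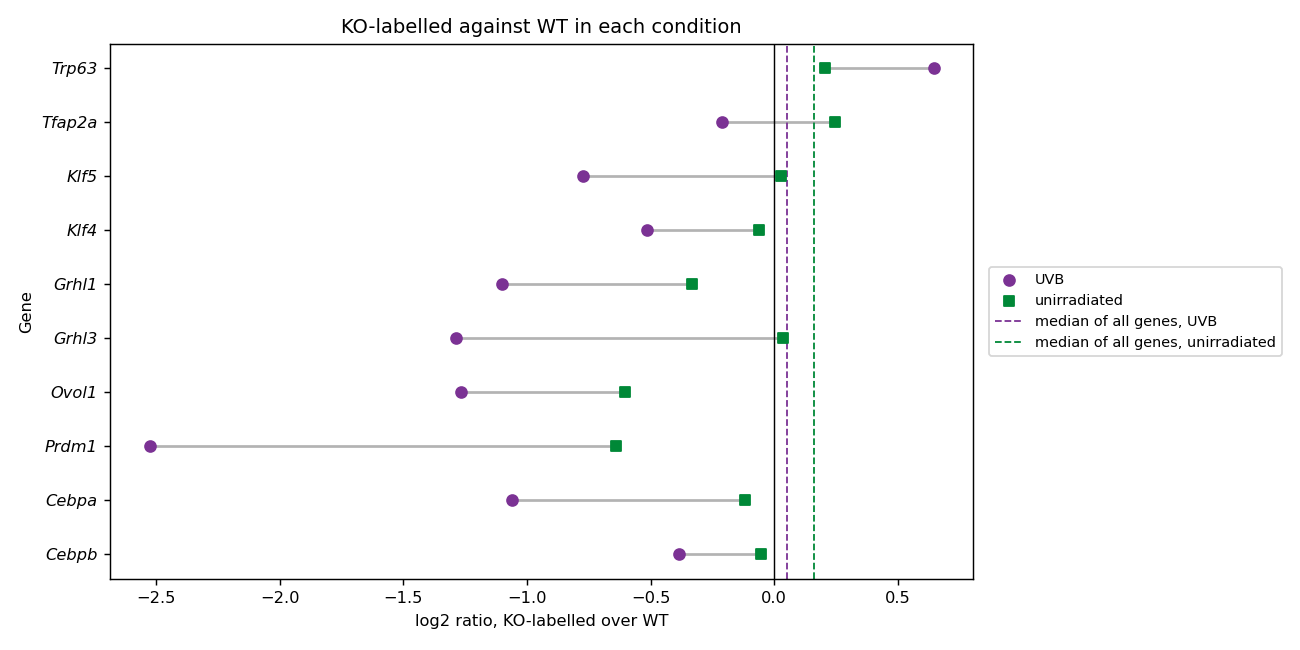
Points give each factor's log2 ratio of KO-labelled over WT signal after UVB (circles) and without irradiation (squares), with dashed lines at the median of all 11379 genes in each condition (0.05 and 0.16). Prdm1 lies at -2.53 after UVB and -0.64 without irradiation, and all 7 differentiation factors lie left of 0 after UVB.

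The UVB ratio was lower in KO-labelled than in WT cells for 9 of 10 factors. This difference of responses could not be tested with 1 array a group. Over all genes it had a median of -0.08 on the log2 scale, with quartiles of -0.33 and 0.15. For 2 of 10 it was at least 2-fold, where 2.94% of all genes were at least 2-fold lower in that sense, and for 0 it was at least 2-fold higher, where 1.34% were. Prdm1 had a difference of -1.89 on the log2 scale, with 0.114% of all genes lower, and Grhl3 one of -1.33. Cebpa, Klf5 and Grhl1 had differences of -0.94, -0.80 and -0.77, and Trp63, the exception, one of 0.44 by its brightest probe set. The other Trp63 probe sets had the lower UVB ratio in KO-labelled cells, and the mean over its probe sets gave a difference of 0.05. After quantile normalization the differences of Prdm1 and Grhl3 were -1.66 and -1.21. With the floor at the 75th percentile they were -0.52 and -0.07, so neither reached 2-fold.

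Markers of other cell types also differed between the genotypes. Of 10 fibroblast markers 9 were measured, and all 9 were higher in irradiated KO-labelled than in irradiated WT cells. Their summed signal was 3932.3 units in irradiated and 5976.2 units in unirradiated KO-labelled cells, against 2303.4 and 3024.7 units in WT cells. The summed melanocyte signal over 8 markers was 5636.6 and 8694.2 units in KO-labelled cells, irradiated and unirradiated, against 4845.7 and 6179 units in WT cells. Leukocyte markers had 3 of 8 members measured, with Ptprc, Cd3e, Cd207, Itgax and Itgam below the floor, and muscle markers 2 of 6. Sebaceous and hair follicle markers summed to 2425.8 and 3362.3 units in KO-labelled cells, irradiated and unirradiated, against 1830.6 and 2552.1 units in WT cells. Most of that sum was Scd1, at 2168.7 and 2973.7 units in KO-labelled and 1582 and 2198.1 units in WT cells. Of 8 such markers 5 were measured, and after UVB 3 were higher and 2 lower in KO-labelled cells. The part of these markers in the ratios of the transcription factors was not tested.

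Several factors were read by more than 1 probe set, and these differed more in size than in the direction of the UVB ratio. Of the 20 probe sets 19 reached the floor on average, and 15 of them belonged to the 6 factors with more than 1. As deposited, all 19 were lower after UVB in KO-labelled cells and 15 of 19 in WT cells. The upper quartile of all genes was also negative on that scale, at -0.42 in KO-labelled and -0.30 in WT cells. The UVB ratio was lower in KO-labelled than in WT cells for 18 of 19 probe sets. Irradiated KO-labelled cells were below irradiated WT cells for 17 of 19. Over all genes the median log2 difference of responses was -0.08 and the median log2 genotype ratio after UVB was 0.05. The second Klf4 probe set read 661.2 and 682 units in irradiated and unirradiated KO-labelled cells, against 1378.9 and 654.7 units in WT cells. It was thus 2.11-fold higher after UVB in WT cells and 1.03-fold lower in KO-labelled cells, a wider gap than that of the brightest Klf4 probe set. For Trp63, the other 3 probe sets were 9.06-fold, 3.63-fold and 4.76-fold lower after UVB in KO-labelled cells and 6.04-fold, 3.48-fold and 2.71-fold lower in WT cells. They disagreed on the genotype ratio after UVB: the brightest gave KO-labelled cells 1.56-fold higher and the dimmest, at a mean of 90.8 units, 1.87-fold lower. The higher Trp63 signal of irradiated KO-labelled cells therefore rests on which probe set is read. The other probe sets of Tfap2a (7.36-fold and 3.48-fold lower in KO-labelled, 5.50-fold and 2.76-fold in WT cells) and Cebpb (2.91-fold and 1.75-fold lower) had the direction of the brightest. The second Klf5 probe set was 2.19-fold and 2.03-fold lower, and the second Ovol1 probe set at least 2.72-fold and 1.47-fold lower, KO-labelled cells first in each case.

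**Figure D4:**
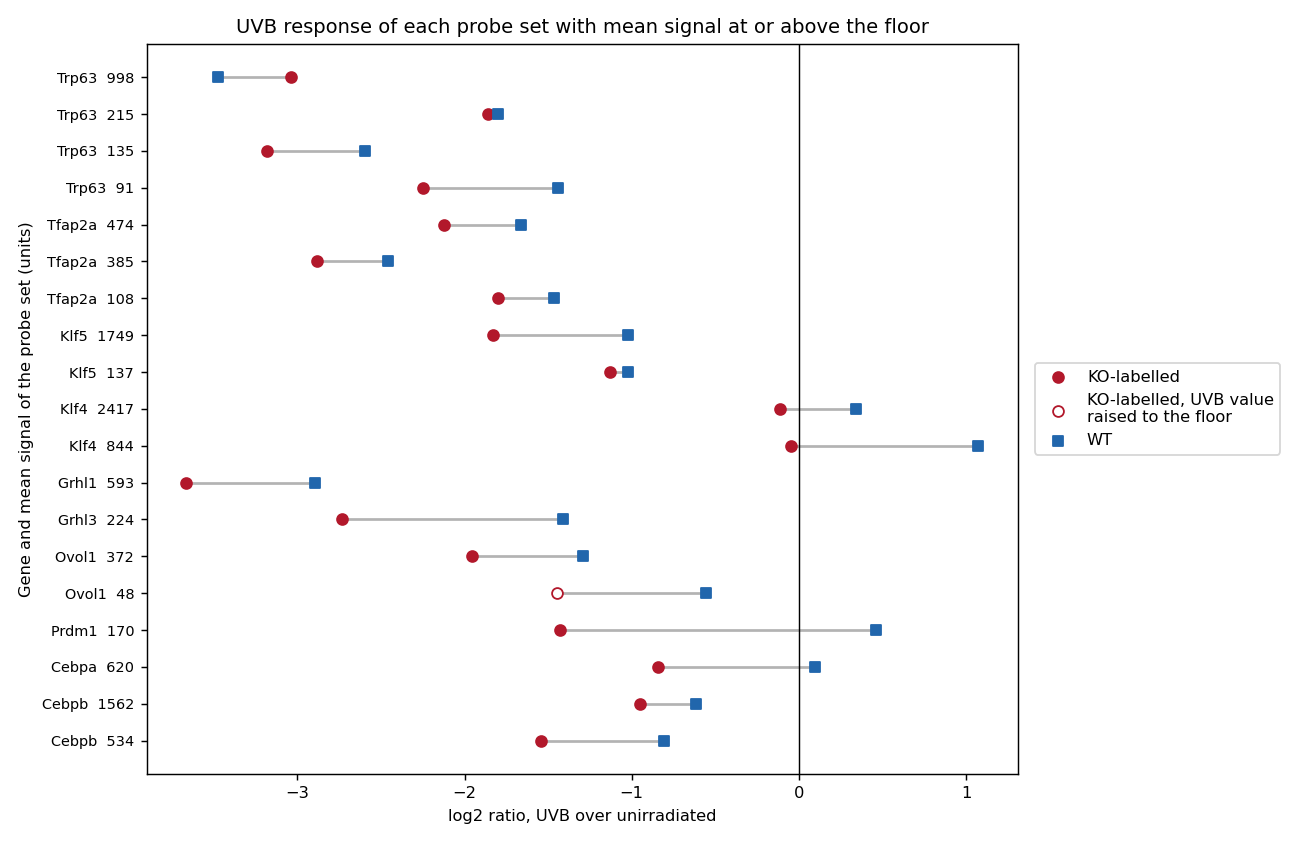
Each row is 1 of the 19 probe sets whose mean signal reached the floor, labelled by gene and mean signal in units, and points give the log2 ratio of irradiated over unirradiated signal in KO-labelled (circles) and WT cells (squares). Every circle lies left of 0 on the deposited scale, as does the upper quartile of all genes in KO-labelled cells (-0.42). The open circle (Ovol1) uses an irradiated value raised to the floor.

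Gene length played no part in choosing the factors, and in KO-labelled cells the longer genes among them tended to have the lower UVB ratios. Gene span, the genomic length in the RefSeq annotation of GRCm38.p6, was 1.52 kb for Cebpb, 2.64 kb for Cebpa and 5.34 kb for Klf4. It was 11.4 kb for Ovol1, 14.7 kb for Klf5, 24.4 kb for Tfap2a, 31.8 kb for Grhl3, 45.2 kb for Grhl1, 91.4 kb for Prdm1 and 208.3 kb for Trp63. The Spearman correlation of span with the UVB log2 ratio over the 10 factors was -0.73 in KO-labelled and -0.49 in WT cells, given as a description of points that share the same arrays. Over the 11351 genes with a span it was -0.31 and -0.33. Prdm1 had a WT ratio of 0.46, where genes of 50 to 100 kb had a median of -1.02. Trp63 and Grhl1 lay far below the medians of their span ranges, which were -0.92 above 200 kb and -0.93 at 20 to 50 kb in KO-labelled cells.

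**Figure D5:**
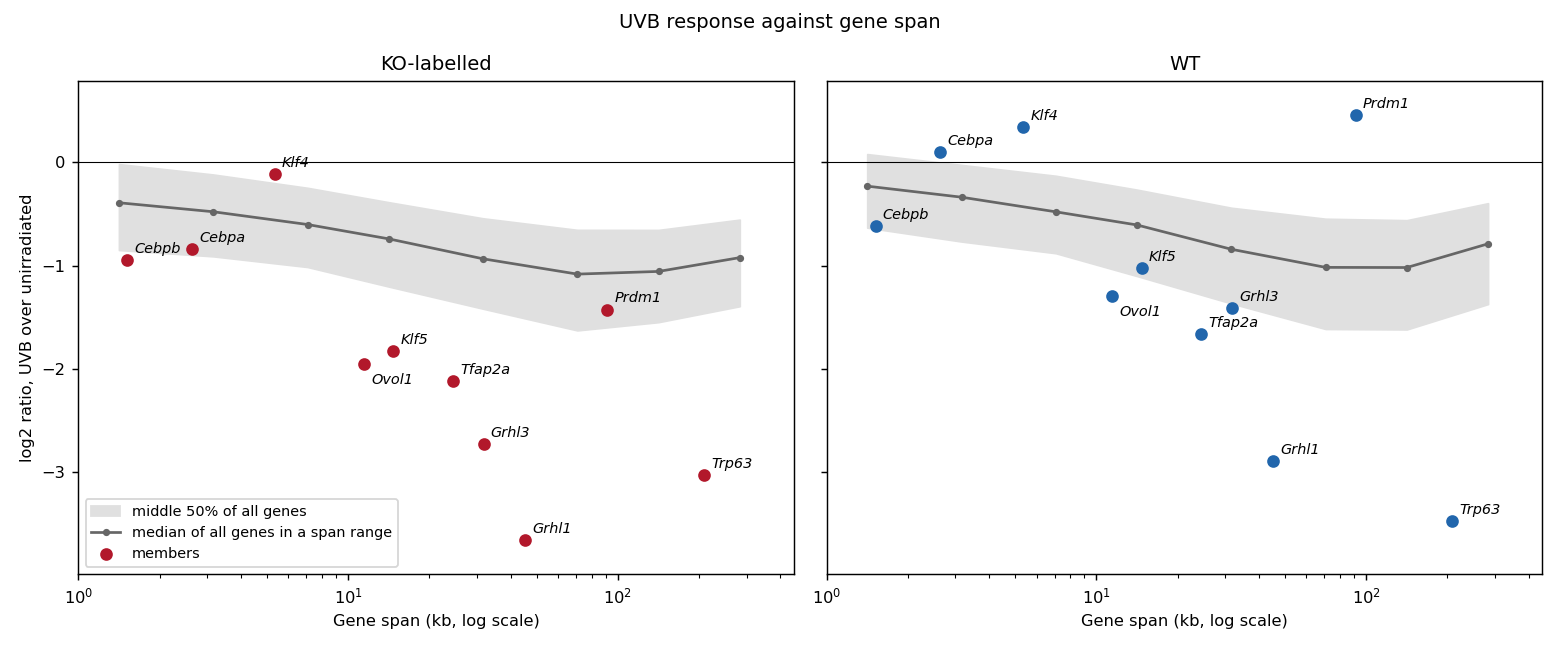
Points give each factor's gene span (kb, log scale) against its log2 ratio of irradiated over unirradiated signal in KO-labelled (left) and WT cells (right), over the median and the middle 50% of all genes in each span range. Klf4 lies above and Trp63 and Grhl1 lie far below the shaded range in both panels, and Prdm1 is within it in KO-labelled cells and above it in WT cells.

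Genes whose pattern over the 4 arrays was most like that of 3 of the factors were found among 9478 genes with every array above the floor, by the root mean square distance between log2 profiles centred on their own means. The genes nearest to Trp63 were Stxbp3, Nuak1, a kinase, and Apaf1, which encodes the apoptosome scaffold, at distances of 0.06, 0.07 and 0.09. Apaf1 read 45.07 and 337.9 units in irradiated and unirradiated KO-labelled cells, against 30.97 and 335.9 units in WT cells. Wfdc15b, Map1lc3a, an autophagosome protein gene, and Jun, an AP-1 subunit, were nearest to Klf4, each at a distance of 0.06. Jun read 1523.7 and 1848 units in irradiated and unirradiated KO-labelled cells, against 2231.2 and 1846.7 units in WT cells. Prdm1 had no near neighbour of that kind. Slpi, which encodes a secreted protease inhibitor, Rpl39 and Defb3, a beta-defensin gene, were nearest at 0.28, 0.29 and 0.30. Slpi read 764.6 and 1258.8 units in irradiated and unirradiated KO-labelled cells, against 3386.7 and 3021.4 units in WT cells.

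Other transcription factors of the epidermis were also mostly lower after UVB, and 1 of those measured was at least 2-fold different between the genotypes in irradiated cells. Of 34 listed 31 were measured, and 25 fell and 0 rose in limma's test, where 69.4% of all genes fell and 0.703% rose. At least 2-fold lower were 20 in KO-labelled and 16 in WT cells, where 39.3% and 34.8% of all genes were. Klf3 was 12.3-fold lower in KO-labelled and 10.8-fold lower in WT cells, Tcf7l1 7.07-fold lower in KO-labelled cells, and Grhl2, the third grainyhead-like factor, 5.96-fold lower in WT cells. At the upper end, Id2 was 1.055-fold higher and Pou2f3 1.095-fold lower in KO-labelled cells, and Sox9 was 1.14-fold higher and Zfp750 1.17-fold lower in WT cells. Against WT cells after UVB, 1 of 31 was at least 2-fold lower with the KO label, where 1.47% of all genes were: Hopx, a homeodomain protein gene, which read 2921.3 units against 6458.7 units. Ehf was 1.94-fold lower, and Pou3f1 and Id2 were 1.77-fold and 1.71-fold higher. Without irradiation Hopx was 1.64-fold lower and Pou3f1 1.92-fold higher in KO-labelled cells, and over both conditions Hopx fell and Pou3f1 rose with the label (limma adjusted p = 0.00547 and 0.0177).

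Genes of the basal and differentiated layers, among them known targets of these factors, had higher medians after UVB than all genes on the deposited scale. They were closer to 0 on that scale only as far as is known, since list medians were not taken on the others. Of 16 basal layer genes 15 were measured and 9 fell after UVB in limma's test, where 69.4% of all genes did, with medians of -0.49 on the log2 scale in KO-labelled and -0.46 in WT cells. Jag2, a Notch ligand, was 2.65-fold lower in KO-labelled and 2.80-fold lower in WT cells, and Itga6, an integrin of the hemidesmosome, 2.05-fold and 2.59-fold. None of the 15 was at least 2-fold different between the genotypes in either condition. Of 25 differentiation genes 24 were measured, 3 rose and 9 fell after UVB in limma's test, where 0.703% of all genes rose and 69.4% fell, with medians of -0.22 and -0.19. Against WT cells after UVB, KO-labelled cells had a signal at least 2-fold lower of 7 of 24, where 1.47% of all genes were, and at least 2-fold higher of 2, where 1.41% were. Lce3c, a late cornified envelope gene, read 80.62 units in irradiated KO-labelled and 922.1 units in irradiated WT cells, and Cnfn, which encodes cornifelin, 328.4 and 2029.1 units. Without irradiation 4 of 24 were at least 2-fold lower with the KO label, where 0.729% of all genes were. At least 2-fold higher was 1 (Sprr2f), where 1.63% were. Unirradiated KO-labelled cells read 8.613 units of Lce3c, below the floor, against 78.55 units in WT cells, and 1018.5 against 3556.3 units of Crct1. Krt1 and Krt10, keratins of the spinous layer, were 2.44-fold and 2.59-fold higher in irradiated KO-labelled cells, so the list did not move as 1 group. Several members of this list were chosen with their values in these arrays known, so its counts are not independent evidence of a direction.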

How the data were processed

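The authors deposited MAS5 signal intensities on a linear scale for the probe sets of 4 arrays, and MAS5 is named per the submitters' processing notes. Its version and scaling target and any detection calls are not stated in the sources used here. Groups came from the sample titles. Probe sets were named from the platform annotation, those with several symbols or none were left out, and all 10 factors matched RefSeq by gene ID. Each gene was read by the probe set with the highest mean signal, values below the floor were raised to it, and ratios were taken on the log2 scale. The change called between 2 arrays is 2-fold, with no test. Irradiation and genotype were fitted as additive terms with limma 3.58.1 in R 4.3.3 over all 11379 genes, with a trend on intensity. Prior degrees of freedom were 8.13 beside 1 residual degree. P-values were adjusted by Benjamini-Hochberg and called below 0.05, and the script was tested on simulated data. The alternatives were quantile normalization, median centring, floors at the 25th and 75th percentile, the mean over probe sets, a 1.5-fold and a 3-fold threshold, no intensity trend, and a fit with 1 term alone.

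The members and gene lists were chosen with earlier results of these data known. All 10 factors were named in every comparison, with their probe sets above the floor, Mapk14, the 3 nearest patterns of Trp63, Klf4 and Prdm1, and up to 2 genes at each end of each list. Coordinates and spans come from RefSeq's GRCm38.p6.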

Additional observations from a re-analysis of the deposited data

Results flagged for a closer look

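Klf4, Prdm1 and Cebpa stood out because their UVB ratios pointed in opposite directions in the genotypes, and the difference was not tested, since each group has 1 array. Klf4 had a log2 ratio of -0.11 in KO-labelled and 0.34 in WT cells. Prdm1 had -1.43 in KO-labelled and 0.46 in WT cells, and this was the 1 factor of the 3 whose directions were opposite under all 3 scales. Cebpa had -0.84 in KO-labelled and 0.10 in WT cells.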

How the results depend on the processing

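The count of factors at least 2-fold lower after UVB depended on the scale. In KO-labelled cells it was 7 as deposited and 3 after centring, with 1 higher after centring. In WT cells it was 6 as deposited, 2 after quantile normalization, 2 after centring and 3 at a 3-fold threshold, and the count of higher factors was 1 after quantile normalization and 3 after centring. Klf5 turned to 0.0445 on the log2 scale in WT cells after centring, and Cebpb to 0.32 in limma's UVB test. Factors passing that test as higher numbered 1 after quantile normalization and 3 after centring. Against WT cells after UVB, the 5 lower factors became 3 with the floor at the 75th percentile and 1 at 3-fold, and 1 factor was higher at 1.5-fold. Without irradiation 2 factors were lower at 1.5-fold. The 2 factors with a lower response in KO-labelled cells became 0 with the floor at the 75th percentile, 6 at 1.5-fold and 1 at 3-fold. In limma's genotype test 1 factor was lower as deposited. There were 3 after quantile normalization, after centring and with the floor at the 25th percentile, 2 with the floor at the 75th percentile and with the mean over probe sets, and 0 without the trend or with the tested factor alone. Where a stricter floor or threshold lowered a count, that follows from how it is built. For the scales, the cause was not tested. Of 490 single-gene values under the alternatives, 430 stayed on the same side of the threshold, 30 no longer passed it and 28 passed it newly. The remaining 2 had passed and turned direction. Part of the 430 could not change, so that count overstates stability. Ratios with the floor at the 25th percentile equal those as deposited. So do ratios of the 4 factors with 1 probe set under the mean over probe sets. Counting values that had not passed, 22 of the 490 had the opposite sign, 11 of them after centring, 7 after quantile normalization, 3 with the floor at the 75th percentile and 1 with the mean over probe sets. No paired analysis was possible because the labels give no replicate numbers and each group has 1 array, and no array could be left out for the same reason. Weak signals limit Prdm1 and Grhl3 most, whose irradiated KO-labelled values were near 50 units, against a floor of 24.9 units.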
